A study of Mus musculus with 6 samples.

Results

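The 9 genes described here encode the inhibitors, regulatory subunits and catalytic subunits of the kinase step that opens the division cycle: the Cdk inhibitors Cdkn1a, Cdkn1b, Cdkn2c and Cdkn2d, the D cyclins Ccnd1, Ccnd2 and Ccnd3, and the kinases Cdk4 and Cdk6. They were taken from the single-cell count tables by symbol, which the tables write in capitals (CDKN1A, CDKN1B, CDKN2C, CDKN2D, CCND1, CCND2, CCND3, CDK4 and CDK6). All 9 were found, of 18011 symbols measured. The cells were mouse Lin- haematopoietic stem and progenitor cells (Lin- HSPC), which are blood-forming cells depleted of mature cells by lineage antibodies. Each of 6 libraries, made with the 10x Chromium 3' version 2 chemistry, counted the unique molecular identifiers (UMIs) of polyadenylated RNA per cell. Libraries KO1, KO2 and KO3 came from Stag2 KO mice, and libraries WT1, WT2 and WT3 from Stag2 wt mice. Stag2 is a subunit of cohesin, the ring complex that holds sister chromatids together and extrudes chromatin loops. The series design text counts 3 mice per genotype, and the labels give no allele, Cre driver, age or sex, nor any treatment shared by the groups.

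D cyclins bind Cdk4 or Cdk6, and the active pair phosphorylates the retinoblastoma protein, which releases E2F factors and lets a cell enter S phase. Cdkn2c and Cdkn2d belong to the INK4 family, which binds Cdk4 and Cdk6 alone and keeps the D cyclins off them, whereas Cdkn1a and Cdkn1b belong to the CIP/KIP family, which also holds the later cyclin and Cdk pairs. In mouse bone marrow these genes are known for setting the quiescence of stem cells and for the exit from division during differentiation, and Cdk6 is known as a kinase that haematopoietic progenitors depend on.

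Each library held 2604 to 7053 deposited cells and 16155065 to 36248233 UMIs. Filtering kept 23416 of 25636 cells, which formed 35 clusters. Clusters were named from cell type markers as 13 classes, and 9 classes had at least 20 cells in every library: HSC/MPP-like (stem cell and multipotent progenitor), lymphoid progenitor-like, early erythroid-like, megakaryocyte-like, granulocyte progenitor-like, basophil/mast cell-like, monocyte-like, dendritic cell-like and T/NK cell-like. Several of these are not progenitors, whatever the lineage depletion. Stag2 itself averaged 22.9 ± 2.61 CPM (UMIs of the gene scaled to a common library total) in the KO libraries and 46.5 ± 6.02 CPM in the WT libraries (SD over 3 libraries each; log2 fold change -1.05 ± 0.12, SE, adjusted p = 6.0e-04). The deleted part of Stag2 is not given, and 3' tags outside it would still be counted, so this level is a limited check of the labels. Any pair of libraries shared 11 to 48 cell barcodes.

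Over all kept cells, Ccnd1 and the inhibitors Cdkn1a and Cdkn2d were lower in KO than in WT libraries, and Cdk6 was higher. UMIs were summed per library and tested with edgeR's quasi-likelihood test, with Benjamini-Hochberg adjustment over the 12648 genes tested and a call at an adjusted p below 0.05. By this rule 1 of the 9 genes rose and 3 fell, against a background of 3.66% of all tested genes called higher and 7.16% called lower in KO (10.8% in all). The median log2 fold change was -0.19 over the 9 genes and 0.01 over all tested genes. In sums of this kind, fewer cells of a type and less RNA per cell cannot be told apart.

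Cdkn1a (chr17:29090976-29100727, plus strand, GRCm38), the CIP/KIP inhibitor induced by p53, had 7.71, 5.99 and 7.32 CPM in the KO libraries, against 12.4, 12.5 and 12.5 CPM in the WT libraries, each in the order of their numbers. All KO libraries lay below all WT libraries, and the WT libraries lay within 1 CPM of each other. The log2 fold change was -0.85 ± 0.11 (SE, adjusted p = 0.0012). Cdkn1b (chr6:134920401-134925513, plus strand), the CIP/KIP inhibitor that accumulates in resting cells, averaged 23.5 ± 1.71 CPM in KO and 22.3 ± 2.44 CPM in WT libraries, which overlapped (log2 0.05 ± 0.10, adjusted p = 0.826).

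Cdkn2d (chr9:21288410-21291407, minus strand), an INK4 inhibitor, had 66.5, 71.2 and 67.0 CPM in KO libraries, against 82.6, 85.6 and 79.3 CPM in WT libraries. The genotypes did not overlap, and Cdkn2d fell by 0.31 ± 0.07 on the log2 scale (adjusted p = 0.0178). The INK4 inhibitor Cdkn2c (chr4:109660876-109667189, minus strand) had 30.9, 34.0 and 32.6 CPM in KO libraries, against 34.7, 45.2 and 37.3 CPM in WT libraries. These values did not overlap either, but the difference missed the threshold (log2 -0.31 ± 0.09, adjusted p = 0.0659), and groups that do not overlap made up 30.5% of all tested genes.

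Ccnd1 (chr7:144929931-144939925, minus strand), the D cyclin best known as a target of mitogen signalling, had 16.3, 17.8 and 21.2 CPM in KO libraries, against 41.8, 37.3 and 27.7 CPM in WT libraries. The lowest WT library, WT3, was still above the highest KO library, and the log2 fold change was -0.97 ± 0.15 (adjusted p = 0.00286). Ccnd2 (chr6:127125162-127152193, minus strand), a D cyclin that cytokine signalling induces in blood cells, had overlapping means of 192 ± 15.7 CPM in KO and 200.1 ± 5.57 CPM in WT libraries (log2 -0.10, adjusted p = 0.517). Ccnd3 (chr17:47505051-47599691, plus strand), the D cyclin needed in lymphoid and erythroid precursors, averaged 138 ± 8.38 CPM in KO and 154 ± 9.18 CPM in WT libraries (log2 -0.19, adjusted p = 0.156), and KO2 lay above WT3.

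The kinase Cdk6 (chr5:3341485-3531008, plus strand) had 304, 252 and 247 CPM in KO libraries, against 197, 200.1 and 217 CPM in WT libraries. The genotypes did not overlap, with KO1 standing above the other KO libraries, and Cdk6 rose by 0.35 ± 0.09 on the log2 scale (adjusted p = 0.0399). The kinase Cdk4 (chr10:127063534-127067920, plus strand) had 304, 265 and 305 CPM in KO libraries, against 243, 298 and 289 CPM in WT libraries, which overlapped (log2 0.04, adjusted p = 0.844). With class sums weighted so that all libraries had equal class shares, Ccnd1 and Cdkn1a stayed called (log2 -0.75, adjusted p = 0.00137, and log2 -0.72, adjusted p = 0.00227). Cdkn2d and Cdk6 were not called with equal class shares (log2 -0.13, adjusted p = 0.236, and log2 0.18, adjusted p = 0.198). The call of Cdkn2d was also lost without KO1, KO3 or WT2 (adjusted p = 0.09, 0.0786 and 0.0688), and that of Cdk6 with any library but WT3 left out (adjusted p of 0.0532 to 0.152). Titles carry the prefix XA in all KO libraries and WT1 but not in WT2 and WT3, and no label says what it stands for. With that prefix as a covariate, Ccnd1 and Cdkn1a stayed called, whereas Cdkn2d (log2 -0.33, adjusted p = 0.0946) and Cdk6 (log2 0.39, adjusted p = 0.155) did not.

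**Figure D1:**
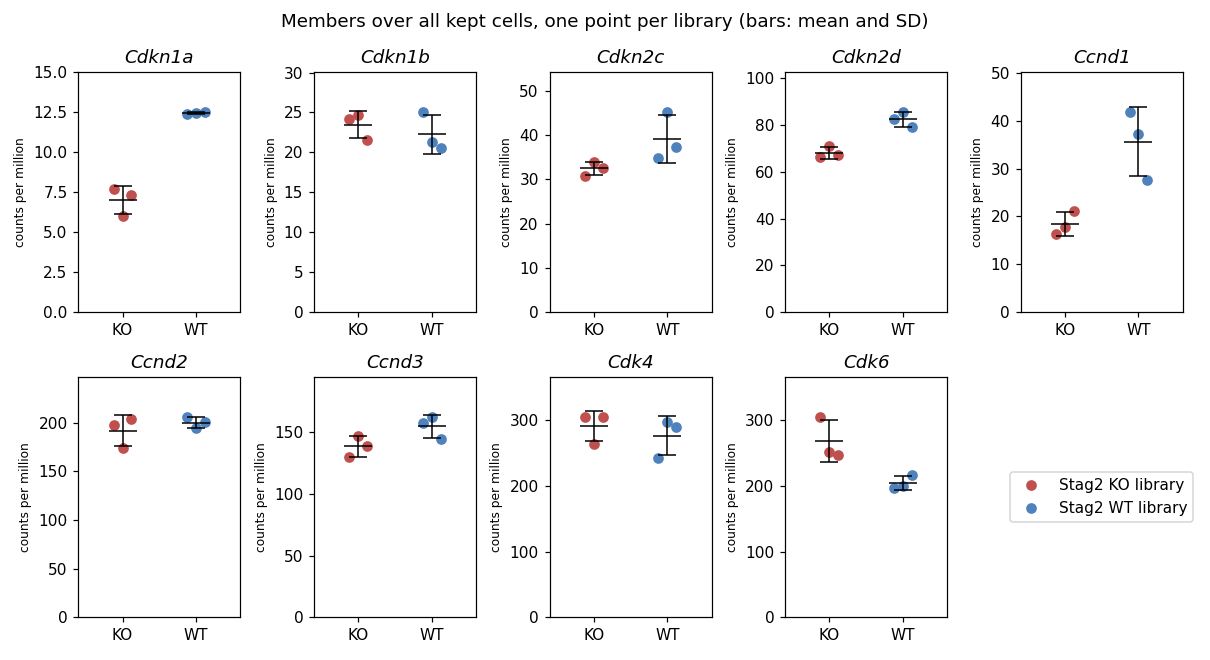
Level of each of the 9 genes, in CPM summed over all kept cells, in each Stag2 KO and each Stag2 wt library. Points are libraries and bars are the mean and SD of 3; the KO points of Cdkn1a, Cdkn2d and Ccnd1 lie below all WT points, those of Cdk6 lie above them, and those of Cdkn1b, Ccnd2, Ccnd3 and Cdk4 overlap with them.

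The genes were spread very unevenly over the marker-defined classes, as the plot of levels by class shows. The levels that follow are means and SDs over the 6 libraries, and a class is compared only within a gene, since 3' counts are not a level per length. These orders are descriptions, because 4 of the 9 genes were among the genes used for clustering.

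Ccnd1 was concentrated in dendritic cell-like cells, at 238 ± 30 CPM, and every library there stood above every library of the next class, monocyte-like cells at 42.8 CPM. Lymphoid progenitor-like cells followed at 23.4 CPM and HSC/MPP-like cells at 17.4 CPM, while basophil/mast cell-like (1.72 CPM), granulocyte progenitor-like (0.95 CPM) and T/NK cell-like cells (0.739 CPM) held almost none. Ccnd2 had another order. It was highest in T/NK cell-like cells at 498 CPM, stood between 274 and 375 CPM in the lymphoid progenitor-like, early erythroid-like, HSC/MPP-like and megakaryocyte-like classes, and was lowest in dendritic cell-like cells at 68.7 CPM. Ccnd3 lay between 191 and 228 CPM in T/NK cell-like, basophil/mast cell-like, dendritic cell-like and monocyte-like cells, whose neighbours in this order overlapped, and reached its low of 67.9 CPM in granulocyte progenitor-like cells.

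Both INK4 inhibitors were high in monocyte-like and dendritic cell-like cells. Cdkn2c reached 64.4 CPM in monocyte-like and 60.3 CPM in dendritic cell-like cells, which overlapped with each other, and the dendritic cell-like libraries all stood above those of megakaryocyte-like cells at 45.4 CPM. Cdkn2d reached 139 CPM in dendritic cell-like cells and 113 CPM in both basophil/mast cell-like and monocyte-like cells, and was lowest in granulocyte progenitor-like cells at 22.8 CPM. Cdkn1b was highest in basophil/mast cell-like cells at 43.6 CPM and lowest in granulocyte progenitor-like cells at 6.22 CPM. Cdkn1a was highest in lymphoid progenitor-like cells at 38.2 CPM and lowest in T/NK cell-like cells at 2.97 CPM, with every neighbour in the order overlapping.

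The kinases were highest in the progenitor classes. Cdk6 had 542 CPM in early erythroid-like, 447 CPM in megakaryocyte-like and 319 CPM in HSC/MPP-like cells, against 50.4 CPM in dendritic cell-like and 40.4 CPM in T/NK cell-like cells. Cdk4 ran from 387 CPM in lymphoid progenitor-like cells down to 142 CPM in T/NK cell-like cells, with neighbouring classes overlapping at every step.

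**Figure D2:**
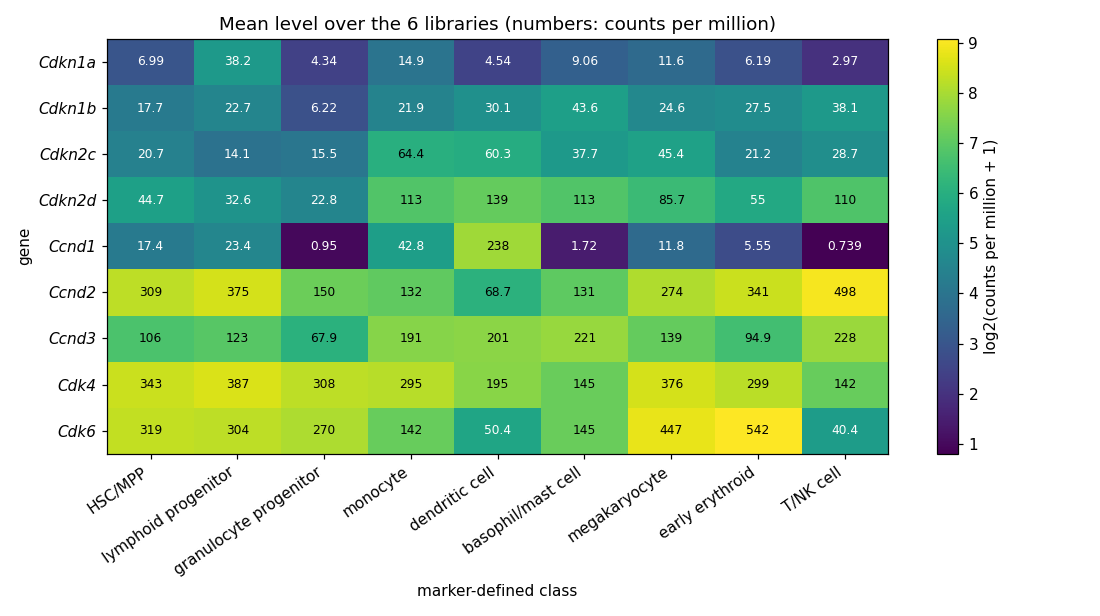
Mean level of each gene, in CPM over the 6 libraries, in each of 9 marker-defined classes. Colour follows the level on a log scale shared by all genes, and classes are compared only within a gene. Compared in this way, Ccnd1 stands out in dendritic cell-like cells, Cdk6 in early erythroid-like cells and Ccnd2 in T/NK cell-like cells.

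Across the 54 class-by-library sums, Cdkn2c and Cdkn2d moved together (Pearson r = 0.82 on log2(CPM + 1)), as did Cdkn2d and Ccnd3 (r = 0.80) and the kinases Cdk4 and Cdk6 (r = 0.78). Ccnd3 and Cdk6 ran opposite (r = -0.66). The sums of 1 library share its depth and those of 1 class share its cell type, so these values describe the classes more than independent samples. By the same measure, among 4693 other genes with at least 20 CPM, the pattern of Ccnd1 was nearest to those of H2-DMa (r = 0.97), Plekho1 (r = 0.93) and Prcp (r = 0.90). That of Cdk6 was nearest to Muc13, Hmgb3 and Serf1 (r = 0.95, 0.95 and 0.94), and that of Cdk4 to Impdh2, Phgdh and Rbmxl1 (r = 0.96, 0.93 and 0.93). Ccnd2 was nearest to the ribosomal protein genes Rpl34, Rps3 and Rps7 (r = 0.90, 0.90 and 0.87), and Ccnd3 to Msn, Klf6 and Actb (r = 0.88, 0.87 and 0.87). Among the inhibitors, Cdkn2c was nearest to Racgap1, Emp3 and Anapc11 (r = 0.83, 0.80 and 0.80), and Cdkn2d to Sept7, Rhoa and Klf6 (r = 0.87, 0.87 and 0.86). Cdkn1b was nearest to Zyx and Pnrc2 (r = 0.86 and 0.84), while the closest genes to Cdkn1a, Ctr9, Egfl7 and Brd8, reached only r = 0.71, 0.68 and 0.67.

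Because Cdkn2c and Cdkn2d moved together over classes and, as described further on, were both higher in G2/M-leaning than in S-leaning cells, although they went opposite ways between cycling and low-cycle cells, the 250 bases upstream of a RefSeq start of each (build GRCm38.p6, both on the minus strand) are shown 5' to 3', with matches to the GC box GGGCGG on either strand in capitals. RefSeq gives 2 starts for Cdkn2c. The window shown is chr4:109666757-109667006 and the Cdkn2d window is chr9:21291210-21291459. By the gene coordinates given above, the whole Cdkn2c window and part of the Cdkn2d window lie inside the annotated gene.
Cdkn2c: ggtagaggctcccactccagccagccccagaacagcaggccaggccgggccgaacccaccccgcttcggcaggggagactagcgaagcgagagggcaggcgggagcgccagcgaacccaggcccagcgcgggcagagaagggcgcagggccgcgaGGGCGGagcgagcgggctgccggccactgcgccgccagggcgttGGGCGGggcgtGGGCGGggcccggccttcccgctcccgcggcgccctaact
Cdkn2d: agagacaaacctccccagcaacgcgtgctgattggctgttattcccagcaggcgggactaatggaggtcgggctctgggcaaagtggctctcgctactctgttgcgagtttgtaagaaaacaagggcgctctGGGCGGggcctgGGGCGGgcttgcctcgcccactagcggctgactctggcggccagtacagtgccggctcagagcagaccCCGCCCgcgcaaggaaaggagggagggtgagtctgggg
Each window shown held 3 GC boxes and the other Cdkn2c window, chr4:109665373-109665622, held 0, while 32.7% of 32851 promoter windows of this length held at least 1. Of the 10 windows listed for 7 of the 9 genes, 7 held a GC box. None held the searched forms of the E2F site (TTTCCCGC, TTTCGCGC, TTTGCCGC and TTTGGCGC), found in 1.86% of all windows, or the CHR element TTTGAA, found in 16.0%, on either strand. A match is only a run of letters, and its absence says only that these letters are not in the window.

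Within classes, Ccnd2 and Ccnd3 were lower in KO dendritic cell-like cells, Ccnd1 was lower in KO monocyte-like cells, and Ccnd2 was higher in KO basophil/mast cell-like cells. Of 81 pairs of a gene and a class, 74 had enough counts to be tested, and by the same edgeR rule 2 were higher and 6 were lower in KO. They fell in 3 classes, in which 11.9% (basophil/mast cell-like), 9.74% (dendritic cell-like) and 6.01% (monocyte-like) of all tested genes were called. Where libraries are said not to overlap within a class or state, the share of all genes for which this held is not given here. That share was given above for all cells only.

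In dendritic cell-like cells, both Ccnd2 and Ccnd3 were well below WT. Ccnd2 had 44.2, 41.6 and 57.2 CPM in KO libraries, against 86.7, 94.2 and 88.2 CPM in WT libraries (log2 -0.94 ± 0.14, adjusted p = 1.7e-04). Ccnd3 had 152, 152 and 146 CPM in KO libraries, against 265, 250.5 and 242 CPM in WT libraries (log2 -0.78 ± 0.11, adjusted p = 6.4e-05). Neither gene's libraries overlapped between genotypes. Cdk4 had 172, 159 and 168 CPM in KO libraries, against 186, 228 and 256 CPM in WT libraries, with the WT libraries spread widely (log2 -0.46 ± 0.11, adjusted p = 0.0103). The call of Cdk4 was lost without WT3 (log2 -0.36, adjusted p = 0.0858), with doublet-scored cells kept (log2 -0.08, adjusted p = 0.797) and with the title prefix as a covariate (log2 -0.26, adjusted p = 0.398). Ccnd1, the D cyclin that marks this class, was not called there, with 232, 187 and 246 CPM in KO and 269, 265 and 230.3 CPM in WT libraries, which overlapped (log2 -0.23, adjusted p = 0.223). Of the UMIs of the D cyclins in this class, Ccnd1 made up 52.6 ± 3.11% in KO and 42.6 ± 1.36% in WT libraries, Ccnd2 11.3% in KO and 15.1% in WT, and Ccnd3 36.0% in KO and 42.3% in WT. These shares did not overlap between genotypes, each at an exact permutation p of 0.1, the smallest that 3 against 3 allows. The 3 shares of a library are parts of 1 total, so they depend on each other and on the levels given above. The shares of Ccnd2 and Ccnd3 also did not overlap in T/NK cell-like and basophil/mast cell-like cells.

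Fitted alone, the clusters of dendritic cell-like cells did not all give these calls. In cluster 8, led by Siglech and Ccr9 (4.56% of its tested genes called), Ccnd3 averaged 121 CPM in KO and 276 CPM in WT libraries (log2 -1.2, adjusted p = 2.0e-05) and Ccnd2 averaged 25.3 CPM in KO and 65.5 CPM in WT (log2 -1.38, adjusted p = 9.3e-04). In cluster 12, led by Cd209a and Clec9a (6.55% called), Ccnd3 averaged 175 CPM in KO and 249 CPM in WT (log2 -0.51, adjusted p = 0.0197), while Ccnd2 did not pass (52.7 CPM in KO and 85.1 CPM in WT, log2 -0.64, adjusted p = 0.116). In cluster 26, led by H2-Aa and Cd74 (1.61% called), neither Ccnd2 (log2 -0.51, adjusted p = 0.359) nor Ccnd3 (log2 -0.12, adjusted p = 0.827) passed. Cdk4 fell in clusters 8 and 12 (adjusted p = 0.0497 in cluster 8 and 0.0434 in cluster 12). Ccnd1 fell in cluster 26 and in no other dendritic cell-like cluster tested (43.0 CPM in KO and 126 CPM in WT, log2 -1.53, adjusted p = 0.00907); whether its change differed from that of the other clusters was not tested.

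In monocyte-like cells, Ccnd1 fell and Cdkn1b rose. Ccnd1 had 28.4, 19.7 and 39.1 CPM in KO libraries, against 62.5, 48.1 and 58.8 CPM in WT libraries, with no overlap (log2 -0.97 ± 0.18, adjusted p = 0.0053). Cdkn1b had 21.9, 31.7 and 27.3 CPM in KO libraries, against 21.3, 15.5 and 13.8 CPM in WT libraries, so that KO1 lay just above WT1 (log2 0.71 ± 0.19, adjusted p = 0.0385). The Cdkn1b call was made in only 3 of 8 alternative settings and in 2 of 6 fits that left out a library, being lost without KO2, KO3, WT2 or WT3 (adjusted p of 0.0687 to 0.185). The genotypes filled the clusters of this class in different proportions. Cluster 7 held 141, 83 and 112 cells in KO and 120, 238 and 348 in WT libraries. Cluster 11 held 155, 144 and 103 cells in KO and 67, 120 and 133 in WT libraries. Cluster 13 held 54, 72 and 80 cells in KO and 105, 183 and 214 in WT libraries. The part of this in the class values was not tested. Within single clusters, Ccnd1 fell in cluster 11 (8.31 CPM in KO and 29.6 CPM in WT, log2 -1.90, adjusted p = 0.0154, 5.18% of genes called) and in cluster 13, whose leading genes include the mitotic Ube2c (32.4 CPM in KO and 86.8 CPM in WT, log2 -1.40, adjusted p = 0.00874, 0.899% called). Ccnd2 also fell in cluster 13 (63.8 CPM in KO and 126 CPM in WT, log2 -0.95, adjusted p = 0.0142), and Cdkn1a fell in cluster 7 (5.29 CPM in KO and 16.7 CPM in WT, log2 -1.74, adjusted p = 0.00297, 2.26% called). Cluster 19, left unnamed and led by mitotic and histone genes such as Aurkb and Top2a (1.69% called), showed lower Cdkn1a (5.99 CPM in KO and 17.2 CPM in WT, log2 -1.44, adjusted p = 0.0496) and lower Ccnd1 (7.23 CPM in KO and 17.6 CPM in WT, log2 -1.28, adjusted p = 0.0354).

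In basophil/mast cell-like cells the direction of Ccnd2 was the opposite of that in dendritic cell-like cells. It had 173, 145 and 174 CPM in KO libraries, against 105, 87.2 and 102 CPM in WT libraries, with all KO libraries above all WT libraries (log2 0.63 ± 0.10, adjusted p = 4.9e-04). Both INK4 inhibitors fell. Cdkn2c had 29.9, 28.2 and 33.9 CPM in KO libraries, against 37.9, 55.3 and 40.8 CPM in WT libraries (log2 -0.67 ± 0.14, adjusted p = 0.00359), and Cdkn2d had 98.2, 100.1 and 99.1 CPM in KO libraries, against 123, 131 and 125 CPM in WT libraries (log2 -0.47 ± 0.08, adjusted p = 0.0011). For both inhibitors each KO library lay below each WT library. With the title prefix as a covariate none of these calls was made (adjusted p = 0.0659 for Ccnd2, 0.329 for Cdkn2c and 0.0578 for Cdkn2d). The 2 genotypes filled different clusters of this class: clusters 1 and 22 held 591 and 184 cells in KO1 against 8 and 4 cells in WT1, and clusters 0 and 17 held 9 and 22 cells in KO1 against 385 and 80 cells in WT1. In the clusters that both genotypes filled, cluster 14 (4.45% of genes called) and cluster 24 (3.76% called), none of the 3 genes was called by edgeR. Ccnd2 there had a log2 fold change of 0.17 (adjusted p = 0.561) in cluster 14 and 0.64 (adjusted p = 0.399) in cluster 24, and Cdkn2d of 0.26 (adjusted p = 0.712) and -0.09 (adjusted p = 0.875).

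In the other 6 classes none of the 9 genes was called by edgeR or by DESeq2. The counts that follow are at an unadjusted p, and the percentages beside them are at the adjusted threshold. These counts and percentages cannot be compared, since the share of all genes at the unadjusted p was not counted. At an unadjusted edgeR p below 0.05 there were 3 of 9 in HSC/MPP-like (1.48% of all tested genes called at the adjusted threshold), 4 of 7 in early erythroid-like (2.0%), 4 of 8 in lymphoid progenitor-like (1.1%), 2 of 9 in megakaryocyte-like (1.33%), 2 of 8 in granulocyte progenitor-like (2.24%) and 1 of 7 in T/NK cell-like cells (2.68%). Among stem and multipotent progenitor-like cells, Cdkn1a had 6.14, 2.44 and 3.61 CPM in KO libraries, against 12.4, 9.84 and 7.54 CPM in WT libraries (log2 -1.17, adjusted p = 0.156). Cdkn1b, the other CIP/KIP inhibitor, had 22.0, 27.6 and 20.9 CPM in KO libraries, against 7.08, 11.7 and 16.7 CPM in WT libraries (log2 0.82, adjusted p = 0.128). Neither gene's libraries overlapped, but neither difference passed the threshold, and the share of all genes without overlap in this class is not given here. Ccnd1 in megakaryocyte-like cells averaged 7.59 CPM in KO and 16.0 CPM in WT (log2 -1.13, adjusted p = 0.0873), and in lymphoid progenitor-like cells 14.5 CPM in KO and 32.3 CPM in WT (log2 -1.2, adjusted p = 0.117).

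Taken by gene, Ccnd1 and Cdkn1a kept 1 sign across the classes tested. These signs come from the same 6 libraries, and the share of all genes that keep 1 sign is not given here. The fold change of Ccnd1 was negative in all 6 classes tested, from -1.2 to -0.23 on the log2 scale. Its KO mean was below its WT mean in 9 of 9 classes, including those too sparse to test. Among them, granulocyte progenitor-like and T/NK cell-like cells averaged only 0.95 and 0.739 CPM of Ccnd1, each with a lowest library at 0 CPM. Cdkn1a was also negative in all 6 classes tested, from -1.17 to -0.34, with no class past the threshold, and its KO mean was lower in 8 of 9, T/NK cell-like cells being the exception. Cdkn1b was positive in 8 of 9 classes, from -0.14 to 0.94. The others had both signs: Ccnd2 ran from -0.94 to 0.63, Ccnd3 from -0.78 to 0.34, Cdkn2d from -0.47 to 0.74, Cdkn2c from -0.67 to 0.24, Cdk4 from -0.46 to 0.19 and Cdk6, called in no single class, from -0.42 to 0.37.

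**Figure D3:**
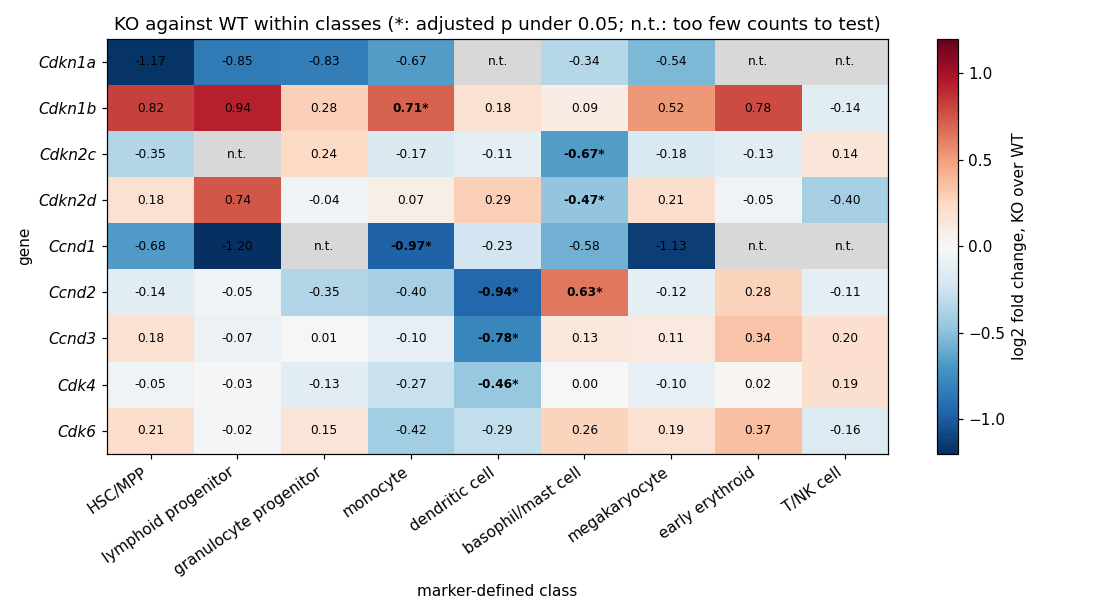
Log2 fold change, KO over WT, of each gene in each class, from edgeR fits of summed UMIs. Asterisks mark adjusted p below 0.05 and n.t. marks genes with too few counts to test; Ccnd2 is higher in basophil/mast cell-like and lower in dendritic cell-like cells, and every tested value of Ccnd1 and Cdkn1a is negative.

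Whether a class differed from the other classes in its genotype effect was tested directly, with limma on each library's log2 CPM in the class minus its mean over the other classes. Of the 9 genes 6 had enough counts in all classes, and 8 values in 4 classes passed an adjusted p of 0.05. In dendritic cell-like cells 4 of 6 genes passed (8.06% of 5360 genes did): Ccnd2 (-0.90 ± 0.08, adjusted p = 1.2e-06), Ccnd3 (-0.89 ± 0.09, adjusted p = 4.4e-06), Cdk4 (-0.40 ± 0.08, adjusted p = 0.00205) and Cdk6 (-0.36 ± 0.08, adjusted p = 0.00922) had log2 genotype effects below those of the other classes by these amounts. In basophil/mast cell-like cells (13.3% called) the effect on Ccnd2 stood above that of the other classes (0.86 ± 0.07, adjusted p = 1.3e-08) and that on Cdkn2d below it (-0.58 ± 0.10, adjusted p = 1.4e-04). Monocyte-like cells (3.58% called) passed for Cdk6 (-0.54 ± 0.10, adjusted p = 0.00203), whose mean there was 122 CPM in KO and 162 CPM in WT. The genotypes filled the clusters of monocyte-like cells in different proportions, as given above, and the part of this in the Cdk6 value was not tested. T/NK cell-like cells (3.4% called) passed for Cdkn2d (-0.54 ± 0.13, adjusted p = 0.0348), a call that no fit with a library left out made. The genotypes also filled this class differently: cluster 6, led by Gzma and Ncr1, held 208, 122 and 110 cells in KO and 119, 221 and 293 in WT libraries, and cluster 4, led by Trdc and Cd3d, held 95, 86 and 46 in KO and 226, 281 and 393 in WT. Within them Cdkn2d did not pass (log2 -0.34, adjusted p = 0.488 in cluster 6 and log2 -0.55, adjusted p = 0.4 in cluster 4). In the other 5 classes limma called none of the 6 genes, with 2 at an unadjusted p below 0.05 in HSC/MPP-like (0.504% of genes called at the adjusted threshold), 3 in early erythroid-like (0.373%), 2 in granulocyte progenitor-like (0.336%), 1 in lymphoid progenitor-like (0.224%) and 1 in megakaryocyte-like cells (0.28%). Here too the counts at an unadjusted p cannot be compared with the percentages at the adjusted threshold. DESeq2 was not run on this difference.

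The cells were next divided by cycle state. Each cell was thinned to 2000 UMIs, and a cell with at least 5 UMIs from lists of 32 S phase and 38 G2/M genes was called cycling, otherwise low-cycle; a cycling cell was S-leaning where its S phase UMIs were at least its G2/M UMIs. None of the 9 genes is in either list. This gave 8973 cycling and 11439 low-cycle cells, of which 1145 stood at 5 UMIs and 1556 at 4, next to the threshold; 3004 shallower cells, 1786 of them in WT3, were left out. Free RNA can add to the UMIs that call a state, and its part was not tested.

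Over both genotypes, with the library as a block, 8 of the 9 genes differed between cycling and low-cycle cells, where 69.8% of all genes did. Cdk4 averaged 349 CPM in cycling and 188 CPM in low-cycle cells (log2 0.97), Cdkn1a 11.7 CPM in cycling and 6.36 CPM in low-cycle (log2 0.95), Cdkn2c 42.6 CPM in cycling and 25.1 CPM in low-cycle (log2 0.83) and Cdk6 266 CPM in cycling and 197 CPM in low-cycle (log2 0.51). Cdkn1b, by contrast, averaged 15 CPM in cycling and 32.2 CPM in low-cycle cells (log2 -1.04). Ccnd1 (log2 -0.66), Ccnd2 (log2 -0.45) and Cdkn2d (log2 -0.22) were also lower in cycling cells, and Ccnd3 did not pass (log2 -0.06, adjusted p = 0.465). Each of the 8 went the same way in 6 of 6 libraries. Cdkn2d turned positive (log2 0.22) when 8 UMIs were needed to call a cell cycling.

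The sign varied between classes. In dendritic cell-like cells (32.3% of genes called, 7 of the 9), Ccnd3 averaged 374 CPM in cycling and 133 CPM in low-cycle cells (log2 1.43), and Ccnd2 134 CPM in cycling and 45.2 CPM in low-cycle cells (log2 1.46). In monocyte-like cells (39.5% called, 7 of the 9) Ccnd1 was higher in cycling cells, at 47.9 CPM against 21.8 CPM in low-cycle cells (log2 1.0), the opposite of its sign over all cells. In basophil/mast cell-like cells (49.5% called, 6 of 8 tested), Cdkn1a averaged 17.5 CPM in cycling and 2.75 CPM in low-cycle cells (log2 2.65), and Cdkn2c 64.8 CPM in cycling and 16.5 CPM in low-cycle cells (log2 1.96). In HSC/MPP-like cells (23.7% called, 3 of 8) and early erythroid-like cells (14.5% called, 5 of 7) Cdk4 was higher in cycling cells (log2 0.57 in HSC/MPP-like and 0.49 in early erythroid-like cells), and Cdk6 was lower in cycling early erythroid-like cells (473 CPM in cycling and 589 CPM in low-cycle, log2 -0.32).

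Among cycling cells of all classes together, the INK4 inhibitors were higher in G2/M-leaning than in S-leaning cells. Cdkn2d averaged 120 CPM in G2/M-leaning and 41.2 CPM in S-leaning cells (log2 1.49), and Cdkn2c averaged 67.1 CPM in G2/M-leaning and 30.1 CPM in S-leaning cells (log2 1.11), each in 6 of 6 libraries. Ccnd2 (log2 -0.79) and Ccnd1 (log2 -0.69) were lower in G2/M-leaning cells, and 7 of the 9 genes were called in all, where 38.8% of genes were. This comparison was not run within single classes, and the part that class makeup plays in it was not tested.

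Over all classes together, the genotype difference in Ccnd1 was larger in cycling than in low-cycle cells. In cycling cells Ccnd1 had 9.54, 9.99 and 14.6 CPM in KO libraries, against 42.2, 34.8 and 27.5 CPM in WT libraries (log2 -1.62 ± 0.18, adjusted p = 2.8e-04). In low-cycle cells it had 28.5, 30 and 32.4 CPM in KO libraries, against 42.8, 41.9 and 32.9 CPM in WT libraries, where KO3 came close to WT3 (log2 -0.45, adjusted p = 0.0577). The difference between these effects was -1.17 ± 0.12 on the log2 scale (edgeR interaction, adjusted p = 1.5e-06). In G2/M-leaning cells the gap was wider still, with 4.93, 5.41 and 6.76 CPM in KO libraries, against 31.2, 32.7 and 22.9 CPM in WT libraries (log2 -2.33 ± 0.18, adjusted p = 9.7e-05), than in S-leaning cells (log2 -1.39, adjusted p = 4.1e-04), a difference of -0.96 ± 0.18 (adjusted p = 0.0341). The first of these interactions was called for 4.05% of genes and for 2 of the 9, Ccnd1 and Ccnd3, and the second for 0.181% of genes and for Ccnd1 alone of the 9.

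The classes that made up the cycling cells also differed between genotypes. Dendritic cell-like cells made up 2.77% of cycling cells in KO and 7.99% in WT libraries and supplied 25.5% of the Ccnd1 UMIs of cycling cells in KO and 33.2% in WT; monocyte-like cells made up 12.2% of cycling cells in KO and 25.4% in WT, and granulocyte progenitor-like cells, which hold almost no Ccnd1, 23.2% in KO and 11.6% in WT. Of the Ccnd1 UMIs of low-cycle cells, dendritic cell-like cells supplied 87.1% in KO and 78.4% in WT libraries. The 2 states thus drew Ccnd1 largely from different classes, and the part of this in the interaction was not tested. With equal class shares in every library the fall of Ccnd1 in cycling cells was still called but smaller (log2 -0.68, adjusted p = 0.00672), as was that in G2/M-leaning cells (log2 -1.29, adjusted p = 0.00157). Within single classes that could be tested, none of the 9 genes passed the interaction by edgeR, with 0 of 8 at an unadjusted p below 0.05 in HSC/MPP-like (0.05% of genes called), 2 of 8 in basophil/mast cell-like (0.269%), 1 of 9 in dendritic cell-like (0.0942%), 1 of 7 in early erythroid-like (0.0%) and 3 of 9 in monocyte-like cells (0.168%). The percentages are at the adjusted threshold, so the counts at an unadjusted p cannot be compared with them. The smallest adjusted p there was 0.131, for Ccnd2 in monocyte-like cells, and DESeq2 was not run on the interaction.

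The other genes called within states behaved differently once class shares were made equal. In cycling cells 1 of the 9 genes rose and 5 fell, where 10.9% of all genes were called, 3.85% higher and 7.02% lower in KO. In G2/M-leaning cells 4 fell (7.53% of genes called, 5.38% lower), in S-leaning cells 2 fell (7.99% called, 5.19% lower) and in low-cycle cells 1 fell (4.78% called, 3.43% lower). Cdkn1a had 9.23, 6.44 and 8.66 CPM in cycling cells of KO libraries, against 16.1, 15.8 and 14.1 CPM in WT libraries, with no overlap (log2 -0.91 ± 0.13, adjusted p = 0.00129). It stayed called with equal class shares (log2 -0.72, adjusted p = 0.00376), and was also lower in S-leaning cells (log2 -1.02 ± 0.19, adjusted p = 0.00479). In low-cycle cells, where it had 4.87, 5.04 and 4.54 CPM in KO and 7.79, 6.75 and 9.18 CPM in WT libraries (log2 -0.79, adjusted p = 0.0352), DESeq2 did not call it.

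Cdkn2d had 95.2, 93.6 and 104 CPM in G2/M-leaning cells of KO libraries, against 138, 160.5 and 129 CPM in WT libraries (log2 -0.55, adjusted p = 0.00537), and Cdkn2c had 48.5, 53.2 and 60.6 CPM in KO, against 65.8, 103 and 71.1 CPM in WT libraries (log2 -0.58, adjusted p = 0.0375). For each inhibitor all KO libraries lay below all WT libraries, and WT2 stood highest. Ccnd3 had 111, 133 and 124 CPM in G2/M-leaning cells of KO libraries, against 186, 194 and 147 CPM in WT libraries (log2 -0.52, adjusted p = 0.0158). Its effect in cycling cells was more negative than in low-cycle cells by 0.40 ± 0.06 (log2 -0.40, adjusted p = 4.6e-04). The calls of Ccnd3 and Cdkn2c in G2/M-leaning cells were lost without KO1, KO3 or WT2 (adjusted p of 0.063 to 0.0735 for Ccnd3 and 0.0599 to 0.143 for Cdkn2c), and for Cdkn2c also without KO2. With equal class shares none of these 3 calls in G2/M-leaning cells was made: Cdkn2d had log2 -0.12 (adjusted p = 0.701), Cdkn2c log2 -0.14 (adjusted p = 0.754) and Ccnd3 log2 -0.19 (adjusted p = 0.317). The same held in cycling cells for Cdkn2c, Cdkn2d, Ccnd3 and for Cdk6, the gene that rose there (329, 288 and 272 CPM in KO libraries, against 237, 229 and 241 CPM in WT libraries, log2 0.30, adjusted p = 0.0467, and log2 0.12, adjusted p = 0.48 with equal shares).

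**Figure D4:**
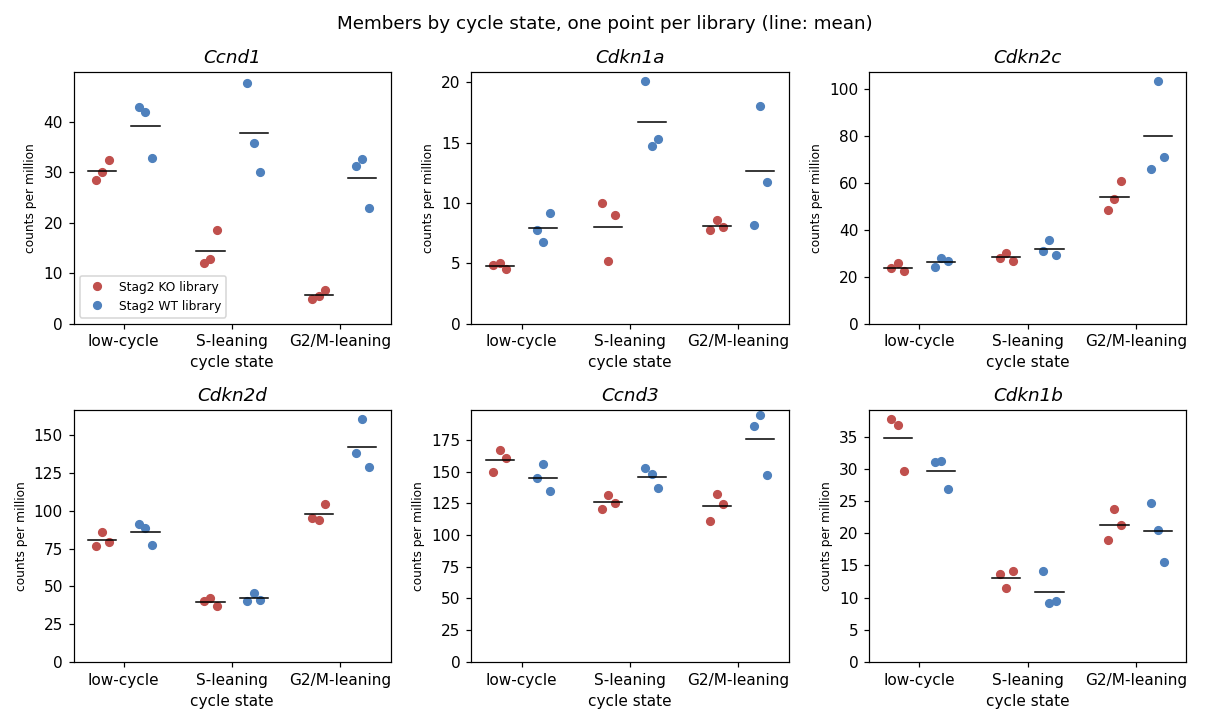
Levels of Ccnd1, Cdkn1a, Cdkn2c, Cdkn2d, Ccnd3 and Cdkn1b, in CPM, in low-cycle, S-leaning and G2/M-leaning cells of each Stag2 KO and Stag2 wt library. Points are libraries and lines their mean (n = 3). Ccnd1 in KO libraries reaches its low in G2/M-leaning cells, while Cdkn2c and Cdkn2d are highest there in both genotypes and lower in KO.

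Splitting each class by state gave 110 tests, of which 3 were called higher and 7 lower in KO. Cycling basophil/mast cell-like cells held 4 of them (6.65% of their genes called). Ccnd2 there had 138, 125 and 140 CPM in KO libraries, against 77.9, 68.3 and 70.1 CPM in WT libraries (log2 0.78, adjusted p = 1.6e-04), and Cdkn1b had 33.3, 41.1 and 34.7 CPM in KO libraries, against 27.1, 20.1 and 16.1 CPM in WT libraries (log2 0.68, adjusted p = 0.035). Both had every KO library above every WT library, whereas Cdkn2d (log2 -0.44, adjusted p = 0.016) and Cdkn2c (log2 -0.56, adjusted p = 0.042) fell, the last with overlapping libraries. Ccnd2 also rose in low-cycle basophil/mast cell-like cells (log2 0.57, adjusted p = 0.024, 4.71% called).

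In low-cycle dendritic cell-like cells (3.52% called) Ccnd2 had 32.1, 24.4 and 33.3 CPM in KO libraries, against 62.8, 62.0 and 56.4 CPM in WT libraries (log2 -1.04, adjusted p = 0.0011), and Ccnd3 also fell (log2 -0.52, adjusted p = 0.026). In cycling dendritic cell-like cells (0.403% called) 0 of 8 genes passed by edgeR, at the adjusted threshold or at an unadjusted p below 0.05, or by DESeq2. In low-cycle monocyte-like cells (3.66% called) Ccnd1 had 17.7, 8.98 and 7.51 CPM in KO libraries, against 30.3, 33.6 and 32.7 CPM in WT libraries (log2 -1.47, adjusted p = 0.017), and Ccnd2 (log2 -0.90, adjusted p = 0.020) and Cdk4 (log2 -0.56, adjusted p = 0.048) fell too, although DESeq2 called none of the 3. In cycling monocyte-like cells (1.48% called) edgeR called 0 of 9, with 2 at an unadjusted p below 0.05, and DESeq2 called 1. In the other groups edgeR and DESeq2 called none of the genes. The percentages that follow are again at the adjusted threshold, so the counts at an unadjusted p cannot be compared with them. Unadjusted p values below 0.05 numbered 1 of 8 in cycling HSC/MPP-like cells (1.14% of genes called) and 3 of 8 in low-cycle ones (1.1%), 2 of 7 in cycling early erythroid-like cells (1.01%) and 2 of 7 in low-cycle ones (1.97%). They numbered 2 of 8 in cycling granulocyte progenitor-like (1.76%), 2 of 9 in cycling megakaryocyte-like (1.23%), 3 of 7 in low-cycle lymphoid progenitor-like (0.983%) and 2 of 7 in low-cycle T/NK cell-like cells (2.86%). Of the 10 calls, that of Ccnd2 in low-cycle dendritic cell-like cells was the only one made in every alternative setting and with every library left out.

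The share of cells called cycling was lower in each KO library than in each WT library in dendritic cell-like, monocyte-like and megakaryocyte-like cells, though the exact permutation test used for shares cannot go below 0.1 with 3 libraries a group. In dendritic cell-like cells it was 12.2%, 10.2% and 15.9% in KO libraries, against 34.2%, 31.2% and 33.4% in WT libraries, a difference of -20.2 percentage points. In monocyte-like cells it was 52.9%, 49.8% and 59.4% in KO libraries, against 79.7%, 76.0% and 78.9% in WT libraries, a difference of -24.1 points. In megakaryocyte-like cells it was 72.2 ± 3.79% in KO and 79.4 ± 1.25% in WT libraries (-7.27 points). Without thinning the differences were -20.6, -26.3 and -7.08 points. Each of these classes gave an exact 2-sided permutation p of 0.1, the smallest that 3 against 3 allows, and 0.333 after adjustment over the 10 tests. Over all cells the share was 43.3 ± 3.79% in KO and 42.6 ± 6.74% in WT libraries, and in basophil/mast cell-like cells 31.5% in KO and 36.9% in WT (exact p = 0.3). The basophil/mast cell-like libraries overlapped there but not without thinning (23.9% in KO and 27.2% in WT) or at a threshold of 8 UMIs (14.8% in KO and 23.2% in WT, -8.44 points), each with an exact p of 0.1. The parts that cell state and expression within a state play in the class sums cannot be told apart from these shares alone; the sums within each state are those given above.

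Over all cells, 4 genes of the rest of the pathway fell and none rose. In the same fit 7.16% of all tested genes were called lower and 3.66% higher in KO. The lists that follow are descriptions, and no set test was run on them. Of 12 genes of the retinoblastoma and E2F family none was called by edgeR or DESeq2, 1 had an unadjusted p below 0.05 (E2f2, log2 -0.45, adjusted p = 0.128), and the median log2 fold change was 0.03. Tfdp2 and Tfdp1, which pair with the E2F factors, had log2 0.19 (adjusted p = 0.332) and log2 0.13 (adjusted p = 0.335). Among 10 later cyclins, Cdks and their activating phosphatases, 1 fell: Ccne1, the cyclin that acts with Cdk2 at the start of S phase, averaged 7.02 CPM in KO and 10.4 CPM in WT libraries (log2 -0.59, adjusted p = 0.010), and the median was -0.23, with 7 of 10 at an unadjusted p below 0.05. The Ccne1 call was lost with equal class shares (adjusted p = 0.093) and with the title prefix as a covariate (adjusted p = 0.0943). Of 11 genes of Cdk activation and inhibitor turnover none was called by edgeR or DESeq2 and none had an unadjusted p below 0.05, with the smallest p for Cul1 (log2 0.12, adjusted p = 0.341), Cdk7 (log2 0.12, adjusted p = 0.365) and Wee1 (log2 -0.10, adjusted p = 0.571).

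Of 12 tested genes of p53 and its targets, 1 fell: Pmaip1, the p53-induced BH3-only death gene also called Noxa, averaged 0.498 CPM in KO and 2.59 CPM in WT libraries (log2 -2.40, adjusted p = 6.0e-04), while the list's median was -0.18, with 5 of 12 at an unadjusted p below 0.05 and 2 called by DESeq2. Of 12 genes upstream of the D cyclins and Cdkn1b, 1 fell: Klf2, a transcription factor of resting lymphocytes and other quiescent cells, with a log2 fold change of -1.04 (adjusted p = 8.6e-04) and a list median of -0.08, with 5 of 12 at an unadjusted p below 0.05. Of the remaining Cdk inhibitors, 2 of 3 could be tested, and Cdkn2a, the INK4 gene that also encodes Arf, fell at a very low level (0.155 CPM in KO and 0.631 CPM in WT, log2 -2.16 ± 0.43, adjusted p = 0.0109) while Cdkn1c did not pass (log2 -0.17). The Cdkn2a call was lost without KO1 (log2 -1.81, adjusted p = 0.0627), without WT2 (log2 -2.11, adjusted p = 0.0516) and with the title prefix as a covariate (log2 -1.64, adjusted p = 0.238). The counts of called genes stand beside the 10.8% of all genes called in the same fit. For the counts at an unadjusted p the share over all genes was not counted.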

How the data were processed

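The values the authors deposited were UMI counts: whole, unnormalized numbers for each gene in each cell of a library, beside the authors' cluster number, which no result here uses. Which aligner, counter and genome build made them is not stated in the labels or headers; the labels name the 10x Chromium 3' version 2 chemistry. Of 18011 symbols, 17438 matched the GENCODE M21 annotation of GRCm38, which gave the gene coordinates, and promoter windows came from RefSeq (GRCm38.p6). Cells needed 500 or more detected genes and no more than 20% mitochondrial UMIs, and a simulated-doublet score (40 neighbours) removed 0.8% of cells per 1000. Cells were clustered together without integration (2000 variable genes, 30 principal components, 15 neighbours, Leiden resolution 1.0, seed 1). A cluster was named from a type with at least 3 markers raised 2-fold or more at 20 CPM or more; classes are therefore rebuilt here, and read as "like" their name.

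UMIs were summed per library and class or state, since cells are not replicates, and a group needed at least 20 cells in every library. The sums were tested with edgeR 4.0.16 in R 4.3.3 (TMM, filterByExpr, quasi-likelihood test, Benjamini-Hochberg over all tested genes, threshold 0.05), with DESeq2 1.42.0 as an alternative and limma 3.58.1 for class differences. On simulated counts with 200 genes changed by 1 on the log2 scale, the edgeR fit over all cells recovered 88.5%; the trended limma variance was chosen after a simulated test. Shares were compared by exact 2-sided permutation over libraries. Intervals and p-values measure the spread between libraries, which the labels do not tie to single mice. Replicate numbers are accession order and pair nothing. Python 3.11.15, scikit-learn 1.9.0, leidenalg 0.10.2 and scipy 1.17.1 were used.

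The 9 genes, the pathway lists and the markers were chosen with earlier results of these data known. The text names all 9 genes, pathway genes past the threshold over all cells (or the 3 with the smallest p where none passes), the 3 genes most like each of the 9, and Stag2; 1 of these genes is not reported here. Fits of single clusters, equal class shares within states, G2/M-leaning against S-leaning cells and interactions within classes were added after seeing the data.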

Additional observations from a re-analysis of the deposited data

Results flagged for a closer look

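The values given here passed a test of the difference between 2 genotype effects, and each is that difference on the log2 scale. A genotype effect is KO over WT. Against the mean of the other classes (limma, adjusted over 5360 genes), Ccnd2 was -0.90 ± 0.08, Ccnd3 -0.89 ± 0.09, Cdk4 -0.40 ± 0.08 and Cdk6 -0.36 ± 0.08 (SE) in dendritic cell-like cells. Each of these was also called with any single library left out, except that Cdk6 was not called without WT3 (-0.32, adjusted p = 0.0657). In basophil/mast cell-like cells Ccnd2 was 0.86 ± 0.07 and Cdkn2d -0.58 ± 0.10, and the 2 genotypes occupied largely different clusters of that class, whose part in these values was not tested. Cdk6 in monocyte-like cells was -0.54 ± 0.10. There too the genotypes filled the clusters of the class in different proportions, whose part in the Cdk6 value was not tested. Cdkn2d in T/NK cell-like cells was -0.54 ± 0.13 and was called in no fit that left out a library (adjusted p of 0.0609 to 0.165). The genotypes filled its clusters in different proportions, whose part in this value was not tested.

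For the effect in cycling cells minus that in low-cycle cells, over all classes (edgeR interaction with the library as a block), Ccnd1 was -1.17 ± 0.12 and Ccnd3 -0.40 ± 0.06. For the effect in G2/M-leaning minus that in S-leaning cells, Ccnd1 was -0.96 ± 0.18. The class makeup of cycling cells differed between genotypes, and cycling and low-cycle cells drew Ccnd1 largely from different classes. The part of this in these values was not tested, and no interaction of the 9 genes passed within a single class.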

How the results depend on the processing

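Over all cells 4 of the 9 genes were called; 2 were called with only cells of at least 2000 UMIs, with equal class shares and with the title prefix as a covariate, and 2 to 4 with a library left out. Over single classes 8 pairs of gene and class were called, against 13 at Leiden resolution 2.0, 18 with no low-count filter, 4 with the prefix and 7 to 9 with a library left out. Over states 13 calls became 6 with equal class shares, 5 with the prefix and 6 to 13 with a library left out. Over classes split by state 10 calls became 4 with DESeq2, 5 at a state threshold of 3 UMIs, 2 with the prefix and 3 to 10 with a library left out. Of all genes 1369 were called over all cells, 721 with the prefix and 759 to 1466 with a library left out. The prefix covariate leaves WT1 as the only WT library that shares a prefix with KO, so those fits compare fewer libraries; the cause of the other shifts was not tested.

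Some uncalled values turned. Cdk4 over all cells was -0.0066 with only cells of at least 2000 UMIs, -0.030 with equal class shares and -0.037 to 0.086 with a library left out. Cdkn1b was -0.15 with the prefix and -0.0060 to 0.14 with a library left out. Tfdp1 was -0.030 with equal class shares, and Wee1 was 0.031 with the prefix. The share of cycling cells over all cells, KO minus WT, was 0.70 points, -0.93 at a threshold of 8 UMIs and -1.79 to 4.53 with a library left out. Of called values, Cdkn2d in cycling against low-cycle cells became 0.22 at 8 UMIs. Of the other single values, outside library exclusions, 299 kept their direction and side of the threshold, 65 fell short of it and 1 passed it. Ccnd1 and Cdkn1a over all cells and in cycling cells, Ccnd1 in monocyte-like cells, and Ccnd2 and Ccnd3 in dendritic cell-like cells were called in every alternative run.

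No paired analysis was possible because replicate numbers are accession order and pair no libraries. Depth limits Cdkn1a and Ccnd1, which were too sparse to test in 3 of 9 classes each, and cells under 2000 UMIs, most of them in WT3, have no state.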
